A study of Mus musculus with 8 samples.

Results

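Genes that mark and steer dendritic cells were followed across single cells of mouse left lung grafts taken 1 month after orthotopic transplantation. They were 10 of the 17921 genes in the deposited table, chosen by name: Flt3, Zbtb46, Xcr1, Clec9a, Cd209a, Siglech, Irf8, Batf3, Ccl22 and Ccl17. The recipients were male C57BL/6 (B6) mice given no immunosuppression. In the B6→B6 group (5 mice) the donors were B6 as well, and in the HLA→B6 group (3 mice) the donors were B6 mice carrying a human HLA-A2.1 transgene (line 1Enge). Each graft was 1 mouse and 1 library, made from 10000 loaded cells of the dissociated graft and read at the 3′ ends of transcripts, and a graft holds cells of both donor and recipient, which were not told apart here.

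Dendritic cells take up antigen and present it to T cells, and they arise in the bone marrow under the cytokine FLT3L, whose receptor is encoded by Flt3. Conventional dendritic cells (cDCs) express the transcription factor Zbtb46. Of their kinds, cDC1s need Irf8 and Batf3 and bear Xcr1 and Clec9a, while cDC2s bear lectins such as Cd209a in mice. Plasmacytoid dendritic cells (pDCs), which make type I interferon, bear Siglech, and cDCs that mature and migrate to lymph nodes can make the chemokines Ccl22 and Ccl17, ligands of the receptor CCR4 on T cells.

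The table held 20778 cells with median depths of 1356 to 1948 unique molecular identifiers (UMIs, counted molecules) per cell in the 8 mice. More cell barcodes were shared than random draws give in 5 pairs of libraries, and these pairs joined HLA→B6 replicate 2 with the first 3 replicates of B6→B6 into a linked set of 4 libraries. Leaving out cells that shared a barcode with another mouse removed 793 cells (3.82%), and 256 cells (1.23%) were marked as doublets. B6→B6 replicate 4 stood apart by a T cell cluster of 954 cells found in it alone. Values by mouse are listed in order of replicate number, first the 5 B6→B6 and then the 3 HLA→B6 mice.

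At least 1 UMI of the 10 genes was found in 4705 of the 20778 cells, mostly from Irf8, which had 9505 UMIs in 3862 cells (18.6%). The others were sparse, from 714 UMIs of Batf3 in 456 cells and 1696 UMIs of Cd209a in 234 cells down to 167 UMIs of Clec9a in 124 cells. Siglech had 374 UMIs in 73 cells, and Ccl17 had 806 UMIs in 128 cells, so that these transcripts were concentrated in few cells.

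The sequences just before the starts of 4 of these genes are shown because their transcripts occurred as pairs in the same cells, Xcr1 with Clec9a and Ccl22 with Ccl17. They were read from RefSeq on GRCm38.p6, 5′ to 3′ on the strand of the gene. Capitals mark a TATAAA match on either strand. The Xcr1 sequence lies at chr9:123862030-123862279 on the minus strand, Clec9a at chr6:129408612-129408861 on the plus strand, Ccl22 at chr8:94745434-94745589 and Ccl17 at chr8:94810203-94810452, both on the plus strand. Ccl22 (94745590 to 94751699) and Ccl17 (94810453 to 94812036) are both protein-coding genes of chromosome 8.
Xcr1: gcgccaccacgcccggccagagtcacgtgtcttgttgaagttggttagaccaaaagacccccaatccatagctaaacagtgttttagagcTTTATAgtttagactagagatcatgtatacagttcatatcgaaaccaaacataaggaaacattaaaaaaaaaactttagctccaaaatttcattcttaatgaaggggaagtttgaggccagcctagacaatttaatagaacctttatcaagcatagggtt
Clec9a: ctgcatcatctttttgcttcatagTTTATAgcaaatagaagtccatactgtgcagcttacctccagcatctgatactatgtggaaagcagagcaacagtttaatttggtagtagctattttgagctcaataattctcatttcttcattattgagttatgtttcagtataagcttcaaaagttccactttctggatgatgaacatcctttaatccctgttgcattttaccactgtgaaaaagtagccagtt
Ccl22: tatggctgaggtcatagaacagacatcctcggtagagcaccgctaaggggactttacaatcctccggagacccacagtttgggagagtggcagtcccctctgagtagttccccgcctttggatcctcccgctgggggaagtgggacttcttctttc
Ccl17: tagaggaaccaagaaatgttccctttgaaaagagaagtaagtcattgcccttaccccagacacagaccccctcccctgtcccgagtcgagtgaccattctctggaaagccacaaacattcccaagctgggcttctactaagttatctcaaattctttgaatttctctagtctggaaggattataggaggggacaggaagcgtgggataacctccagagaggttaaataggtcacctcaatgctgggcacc

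Promoters of all 10 genes were found in RefSeq, and 2 motifs were searched on both strands in the 250 bases before each start. The AP-1 type motif TGANTCA, which BATF-family proteins bind with JUN partners, stood before the RefSeq start of Zbtb46 and in 6.75% of 32851 mouse promoters. That window (181424389 to 181424638 on chromosome 2) lies inside the gene as GENCODE places it (181387762 to 181459426). The letters TATAAA of the TATA box, on either strand and at any position, stood before Xcr1, Clec9a, Cd209a and Irf8. They stood in 12.4% of single promoters. For Xcr1, Clec9a and Cd209a the match was TTTATA, on the strand opposite to the gene. Only Irf8 had TATAAA on its own strand, in 1 of its 2 promoters. Position relative to the start was not required, so a match need not be a TATA box. These matches are letters in a window and describe no binding.

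Across the 11 deposited cell type labels, most of the 10 genes were concentrated in the cells labelled myeloid cell, a single cluster of 755 cells. Levels are given as counts per 1000000 UMIs (CPM) of the sums per mouse, with mean ± SD over the mice with at least 10 cells of a label. The authors drew the labels from these same counts, so differences between labels are described and not tested. Clec10a, Cox6a2, Naaa and Fscn1, which mark different dendritic cells, were all detected within that single label.

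The receptors Flt3, Xcr1 and Siglech lay mainly in this label. Flt3 reached 159 ± 57.4 CPM in myeloid cells (n = 8), and its values there (45.1 to 240 CPM) did not overlap those of any other label. It had 0 of 1011 natural killer (NK) cells with a UMI, which allows a share of up to 0.297%, against 213 of 755 myeloid cells (28.2%) at median depths of 1484 and 3400 UMIs. Xcr1, the receptor for the chemokine XCL1, reached 51.7 ± 25.8 CPM, and 84.2% of its UMIs lay in myeloid cells. Siglech, a lectin-like receptor of pDCs, had 97.3% of its UMIs there, at 137 ± 103 CPM.

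Clec9a, a receptor for dead cells, was also strongest in myeloid cells, at 29.6 ± 17.2 CPM, but 32.9% of its UMIs lay in alveolar macrophages, of which 1.76% had a UMI. Cd209a, a C-type lectin, reached 695 ± 519 CPM in myeloid cells and had 16.7% of its UMIs in monocytes, where 2.74% of cells had one. The ranges of both genes in myeloid cells overlapped those of the label next in order.

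The transcription factors were spread more widely. Irf8 was highest in NK cells (1169 ± 199 CPM, 69.3% of cells), then in myeloid cells (765 ± 396), B cells (521 ± 116), monocytes (169 ± 31.6) and alveolar macrophages (129 ± 57.7). NK and myeloid cells overlapped, as did myeloid and B cells and as did monocytes and alveolar macrophages, while B cells did not overlap monocytes. Within the B lineage, Irf8 was found in 50.7% and 66.2% of the cells of B cell clusters 0 and 1 and in 17.4% of the cells of cluster 2, which was deeper (7845 UMIs per cell at the median, against 1584 and 2976).

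Batf3 reached 126 ± 38.2 CPM in myeloid cells, 39.4 ± 21.5 in monocytes and 15.9 ± 8.35 in alveolar macrophages, each overlapping the next. Zbtb46 was the exception among the 10. Its highest mean was in lung structural cells (30.6 ± 15.5 CPM), which held 70.3% of its UMIs, and this overlapped the 21.1 ± 14.4 CPM of myeloid cells. Among structural clusters, by the authors' names, it was detected in 4.61% of MHC II+ endothelial cells, 8.06% of Vcam1+ endothelial cells and 12.5% of epithelial cluster 2. It was found in 1 of 322 red blood cells (0.311%), whose median depth of 5067.5 UMIs was the greatest of these. Whether epithelial cluster 2 holds epithelial cells was not tested.

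The chemokines lay mainly in myeloid cells. Ccl17 had 90.3% of its UMIs (728 of 806) in myeloid cells, at 388 ± 516 CPM, and 0 of 1968 monocytes had one, which allows a share of up to 0.152% at a median depth of 2155.5 UMIs. Ccl22 had 84.2% of its UMIs in myeloid cells, at 189 ± 253 CPM, and 28 of 304 in B cells, of which 27 lay in 4 of the 210 cells of B cell cluster 1. For both, the values in myeloid cells did not overlap those of the label next in order.

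**Figure D1:**
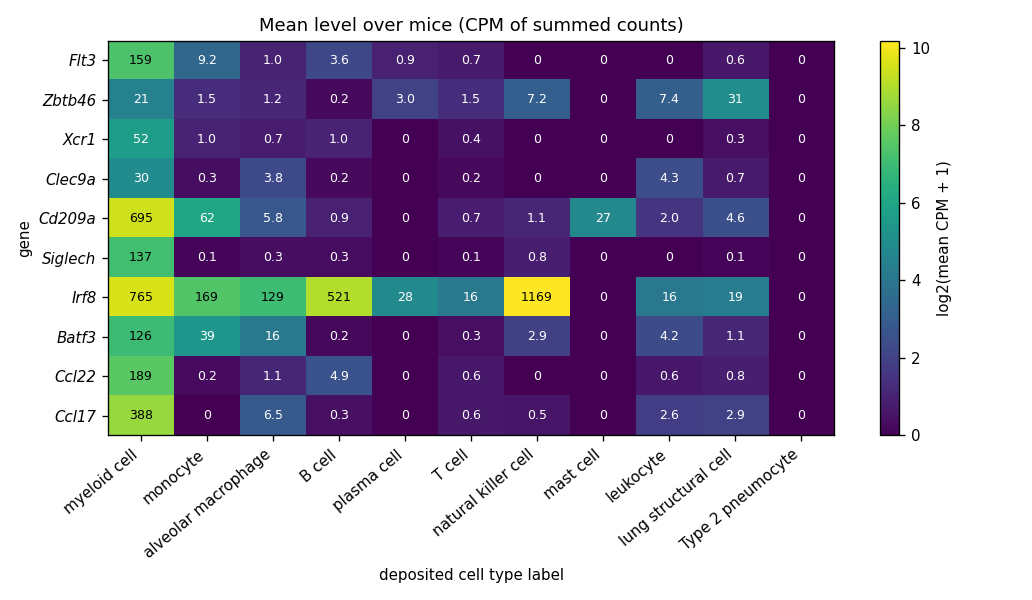
Mean level of each gene in each deposited cell type label, in CPM of UMIs summed per mouse and averaged over mice with at least 10 cells of the label; color is log2(mean CPM + 1) and each box gives the mean CPM. The myeloid cell column is the brightest for all but Irf8, highest in natural killer cells at 1169 CPM, and Zbtb46, highest in lung structural cells at 30.6 CPM.

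The genes whose levels over the 15 deposited clusters were most like each member's are given by Pearson's r of log2(CPM + 1), which describes a shared cluster and depth, not shared cells, and carries no test. For Xcr1 they were Tm4sf5 (0.97), Mycl (0.96) and Cd209d (0.95), and for Clec9a Apol7c, Ckap2l (both 0.96) and Cd300c (0.95). For Siglech, Cd209d (0.99), Il12b (0.99) and Gm21762 (0.97) came first, although 0 of the Siglech cells had Il12b, just as 0 of the Xcr1 cells had Cd209d. For Cd209a they were Bex6 (0.87), Cadm3 (0.86) and Mgl2 (0.86), and for Ccl17 Ttc39a (0.96), Cd207 (0.95) and Spag5 (0.95). Cell cycle genes led for Ccl22, with Nek2 (0.94), Cenpn (0.92) and Knl1 (0.91), and others of the kind followed Nccrp1 (0.90) for Flt3, Cenpm (0.89) and Ccnf (0.89). Dividing cells share the myeloid cluster with these genes, as described for its single cells. Batf3 was closest to Slamf8 (0.96), Rnd3 (0.93) and Aif1 (0.92), Zbtb46 to Zfp366 (0.90), Zbtb8a (0.88) and Sema4c (0.87), and Irf8 to Polm (0.86), Cd72 (0.84) and Rrp12 (0.84).

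Single cells of the myeloid label separated into cells that carried different members. Of 755 cells, 273 had none of the 10 genes, 146 had 1 and the rest had from 2 to 7. Cells with a UMI of a member were mostly deeper than those without (7341.5 against 3118 UMIs at the median for Xcr1, 5358.5 against 2824 for Cd209a), but alike for Ccl22 (3359.5 against 3416), so shares between members with unlike depths are read as counts of cells. No p was computed for pairs.

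Xcr1 was found in 74 myeloid cells and Clec9a in 68, and 38 cells had both, 51.4% of the first and 55.9% of the second. Among the Xcr1 cells, 93.2% also had Irf8, 66.2% had Batf3 and 78.4% had Flt3. Siglech was found with Xcr1 in 2 cells and Cd209a in 3. Most Xcr1 cells thus had a UMI of each transcription factor of cDC1s. All 11 other cDC1 genes were more frequent in Xcr1 cells than in other myeloid cells, among them Naaa in 91.9% of Xcr1 cells against 19.1% of other myeloid cells, Ifi205 in 83.8% against 11.2%, Wdfy4, needed for presenting antigen of dead cells, in 78.4% against 12.3%, and Tlr3, a sensor of double-stranded RNA, in 41.9% against 1.32%. All 11 were also more frequent in cells with Clec9a, Flt3, Zbtb46, Irf8 or Batf3.

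Siglech cells numbered 64, of which 87.5% had Irf8 but only 4 had Batf3, and 0 of 64 had Ccl22, which allows a share of up to 4.69%. Of the 14 pDC genes, 13 were more frequent in Siglech cells than in the others, beside 12 in Flt3 cells and 12 in Irf8 cells. Cox6a2 was found in 62.5% of the Siglech cells against 0.145% of the other myeloid cells, Klk1 in 37.5% against 0 of 691 (a share of up to 0.434%), and Tcf4, the main transcription factor of pDCs, in 75% against 15.8%. Cd209a was found in 24 of the 64 (37.5%) and the cDC2 lectin Clec10a in 31 (48.4%). The 4 markers each of T cells, NK cells, neutrophils and the cell cycle were all less frequent in Siglech cells than in the other myeloid cells. The monocyte and endothelial lists were mixed. Of 7 monocyte markers 3 were more frequent in Siglech cells, with Ly6c2 in 76.6% against 5.07%, and 4 were less frequent, with Csf1r in 6.25% against 8.10% and Treml4 in 0 against 4.05%. Of 3 endothelial markers, Cdh5 was in 37.5% against 2.03%, Cldn5 in 3.12% against 2.17% and Pecam1 in 7.81% against 11.4%. Of the 64 cells, 2 were marked as doublets.

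Cd209a was found in 140 cells, in which all 9 other cDC2 genes and 12 of the 14 pDC genes were more frequent than in the other myeloid cells. Clec10a was found in 54.3% of these against 5.85% of other myeloid cells, Mgl2, another lectin of cDC2s, in 35.7% against 3.74%, and Sirpa in 32.1% against 4.72%. The 9 cDC2 genes were also all more frequent in Zbtb46 cells. Of 7 monocyte markers, 6 were more frequent in Cd209a cells, with Ccr2 in 59.3% against 19.0% and Csf1r in 30% against 2.93%. Treml4 was less frequent (0.714% against 4.39%). The 4 neutrophil markers were more frequent too, in few cells (Csf3r in 2.14% against 0.976%). Ccl17 was found in 24 of the Cd209a cells (17.1%), whereas Ccl22 was found in 1.

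Ccl22 was found in 60 cells and Ccl17 in 82, with both in 30, which is 50% of the first and 36.6% of the second. All 12 genes of mature dendritic cells were more frequent in Ccl22 cells than in the others. The same held in cells with Flt3, Zbtb46, Batf3 or Ccl17, and for 11 of the 12 in Irf8 cells. Flt3 and Batf3 cells were deeper than the rest (5616 against 2134 and 5619.5 against 2793 UMIs at the median). Shares over all genes are not given for these lists. Among Ccl22 cells, 73.3% had Ccr7, the receptor that guides dendritic cells to lymph nodes, against 12.1% of other myeloid cells. The actin-bundling Fscn1 was found in 71.7% against 12.8%, the NF-κB subunit Relb in 68.3% against 18.8% and the amino acid oxidase Il4i1 in 53.3% against 11.5%. When 2 UMIs were required for detection, Clec9a in Xcr1 cells fell to 34.9% and Cd209a in Siglech cells to 25.5%, Irf8 in Xcr1 cells rose to 100% and Batf3 in Siglech cells went to 0; of 32 values of co-detection under alternatives, the other 28 stayed within the interval of counting error.

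**Figure D2:**
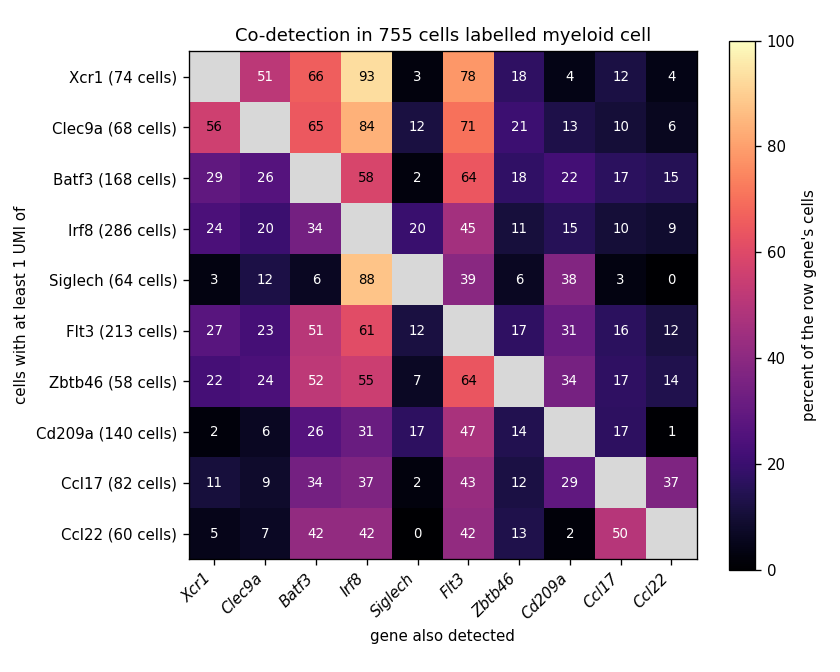
Co-detection among the 755 cells labelled myeloid cell: each row takes the cells with at least 1 UMI of a gene (number in parentheses) and gives the percentage of them that also had a UMI of the column gene. Xcr1 cells had Irf8 in 93.2% and Siglech in 2.70%, and Siglech cells had Irf8 in 87.5% and Batf3 in 6.25%.

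**Figure D3:**
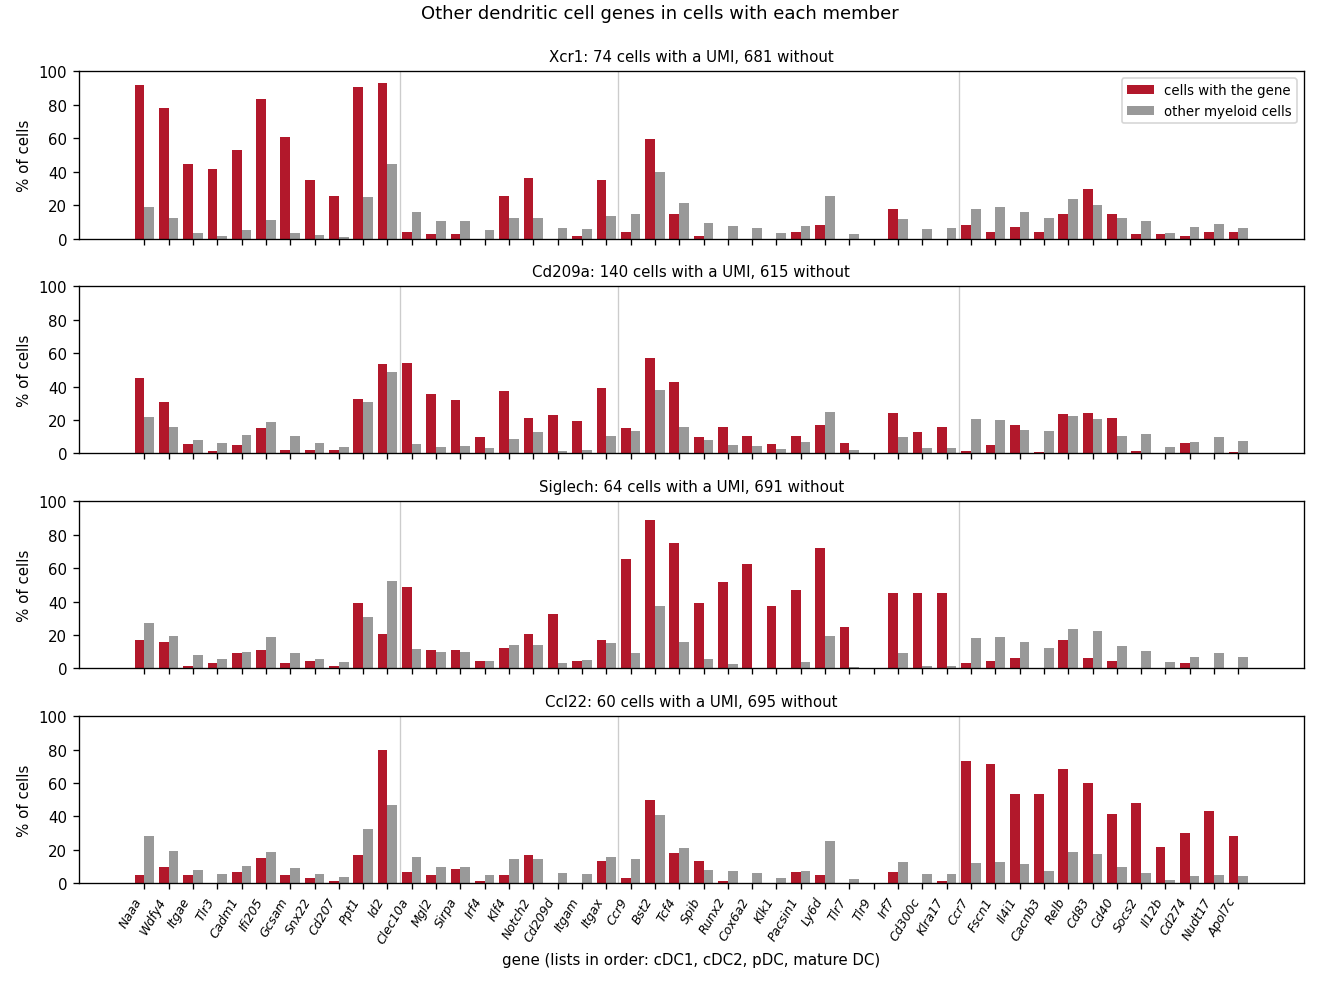
Percentage of myeloid cells with a UMI of other dendritic cell genes, in cells with Xcr1, Cd209a, Siglech or Ccl22 (red bars) and in the remaining myeloid cells (gray bars); genes are ordered by list (cDC1, cDC2, pDC, mature DC). The red bar is above the gray one for all 11 cDC1 genes in Xcr1 cells (Naaa 91.9%), all 9 cDC2 genes in Cd209a cells, 13 of 14 pDC genes in Siglech cells (Tcf4 75%) and all 12 mature DC genes in Ccl22 cells (Ccr7 73.3%), in which Id2 of the cDC1 genes is the tallest at 80%.

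Cells with none of the 10 genes were unlike these. The cell cycle gene Pclaf was found in 64.1% of the 273 and T cell marker Cd3d in 48.7%, against 12.4% and 6.43% of the other myeloid cells. Their median depth was 1478 UMIs. Cells with a T cell marker UMI made up 203 of the 755 (26.9%), and 124 of these were among the 170 myeloid cells of B6→B6 replicate 4 (72.9%). In the other B6→B6 mice there were 5 of 42, 11 of 69, 8 of 73 and 1 of 21, and in the HLA→B6 mice 29 of 175, 22 of 173 and 3 of 32.

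To ask whether the genes differed between HLA→B6 and B6→B6 grafts, UMIs were summed per mouse and compared by edgeR's quasi-likelihood test over all genes, with Benjamini-Hochberg adjustment and a threshold of 0.05. In sums, fewer cells of a kind and less RNA per cell cannot be told apart. Over all cells of a graft, edgeR called 0 of 11584 genes (0%), with 815 at an unadjusted p under 0.05 and 119 called by DESeq2. None of the 10 was called. The lowest p was that of Ccl17, with 36.5 ± 33.6 CPM in B6→B6 (n = 5) and 8.06 ± 2.98 in HLA→B6 grafts (n = 3), a log2 fold change of -2.10 ± 0.87 (SE) and an adjusted p of 0.633 by edgeR. The shares of all cells with a UMI overlapped between the groups for all 10 genes (among all genes, 1.32% were lower and 1.16% higher without overlap), with exact permutation p values from 0.071 (Ccl17) to 0.893; 56 splits of the mice allow no p under 0.036.

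Within myeloid cells the comparison rests on few cells, 42, 69, 73, 170 and 21 by B6→B6 mouse and 175, 173 and 32 by HLA→B6 mouse. Their median depth was 637, 4700, 4114, 4133 and 2100 UMIs in the B6→B6 mice and 3577, 2595 and 832.5 in the HLA→B6 mice. Barcode-sharing cells, as defined above, were 76 of the 755, including 26 of 42 in B6→B6 replicate 1 and 22 of 69 in replicate 2. All 10 genes passed the filter on low counts, and edgeR called none of them, with 0 of 4395 genes called in all (0%; as CPM, 2.94% were higher and 0.887% lower in HLA→B6 mice without overlap, and none of the 10 was among them), 215 (4.89%) at an unadjusted p under 0.05 and 25 called by DESeq2. Their median log2 fold change was 0.06, against -0.04 over all genes tested, and -0.42 over the 9 that were tested when cells with a T cell marker UMI were left out.

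Ccl17 in myeloid cells was at 1442, 687, 305, 156 and 48.3 CPM in B6→B6 mice (normalized by the trimmed mean of M values, TMM) and at 172, 95.4 and 125 CPM in HLA→B6 mice. The values spread widely in the B6→B6 mice, and the lowest of all 8 was B6→B6 replicate 5, so the groups overlapped. The log2 fold change was -2.08 ± 0.84 (SE), with an adjusted p of 0.848 by edgeR's quasi-likelihood test. It was -1.20 without B6→B6 replicate 1 and -0.93 with the linked set of libraries as a block. It went to -2.23 with an adjusted p of 0.143 in edgeR's test when cells with a T cell marker UMI were left out.

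Counted as cells, Ccl17 was found in 21.4, 15.9, 17.8, 10.6 and 14.3% of the myeloid cells of B6→B6 mice and in 7.43, 7.51 and 6.25% of those of HLA→B6 mice. The groups did not overlap (16.0 ± 4.03% against 7.06 ± 0.707%, SD, a difference of -8.95 percentage points, exact permutation p = 0.036, two-sided, the smallest that 5 against 3 mice allow). It was the only member of the 10 without overlap in these shares, where 0.664% of 6023 genes were lower and 0.847% higher without overlap. The share in monocytes, at 0 of 1968, lay below both.

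The difference stayed without overlap when barcode-sharing cells were left out (19.1% against 7.34%, exact permutation p = 0.036) and when cells with a T cell marker UMI were left out (22.2% against 7.45%, exact permutation p = 0.036). It did not stay so when each cell was thinned to 1000 UMIs, which left out 98 of 375 and 116 of 380 shallower cells: the shares were then 14.9 ± 12.3% and 6.29 ± 0.81%, with an exact permutation p of 0.321. Ccl17 was found in 21 of 77 Cd209a cells (27.3%, Wilson 95% interval 18.6 to 38.1%) of B6→B6 mice and in 3 of 63 (4.76%, 1.63 to 13.1%) of HLA→B6 mice, and in 17 of 22 (77.3%) and 13 of 38 (34.2%) Ccl22 cells. By mouse, the first were 3 of 14, 5 of 24, 4 of 19, 7 of 13 and 2 of 7 in B6→B6 and 1 of 31, 2 of 27 and 0 of 5 in HLA→B6 mice. These intervals cover counting error only, over pooled cells.

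Cd209a was at 1646, 928, 850, 104 and 628 CPM in B6→B6 and 341, 440 and 443 CPM in HLA→B6 myeloid cells. B6→B6 replicate 4 was the lowest of all mice and the other 4 were the highest. The log2 fold change was -1.08 ± 0.64 (SE), with an adjusted p of 0.999 by edgeR, and -1.23 without barcode-sharing cells. The share of cells was 33.3, 34.8, 26.0, 7.65 and 33.3% against 17.7, 15.6 and 15.6% (exact permutation p = 0.143). With cells that had a T cell marker UMI left out, a choice made after seeing the data, it was 33.3 ± 6.07% against 17.4 ± 0.98%, without overlap (exact permutation p = 0.036). The share of all genes without overlap is not given for that subset. Over all myeloid cells, 0.664% of genes were lower without overlap.

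Ccl22 was at 667, 116, 53.1, 49.2 and 36.2 CPM in B6→B6 and 45.5, 85.0 and 346 CPM in HLA→B6 mice, so that 1 mouse of each group stood above the rest. Its log2 fold change was -0.37 ± 1.04 (SE), and -0.62 without barcode-sharing cells, which are 26 of the 42 in B6→B6 replicate 1. Its share of cells was 6.49 ± 2.53% against 10.7 ± 3.32% (exact permutation p = 0.107), or 8.25% against 10.7% without those cells (exact permutation p = 0.500).

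For the markers of cDC1s and pDCs the groups overlapped throughout. Xcr1 was at 21.5, 71.4, 76.3, 52.0 and 36.2 CPM in B6→B6 and at 104, 55.5 and 13.9 CPM in HLA→B6 mice, with a log2 fold change of 0.25 ± 0.43 (SE). Siglech was at 108, 143, 83.0, 9.84 and 302 CPM in B6→B6 and at 217, 172 and 41.6 CPM in HLA→B6 mice (0.32 ± 0.75, SE). HLA→B6 replicate 3, with 32 cells, was the lowest or second lowest for both. Clec9a (-0.05 ± 0.55), Flt3 (-0.13 ± 0.45), Zbtb46 (0.20 ± 0.60), Irf8 (0.16 ± 0.53) and Batf3 (0.52 ± 0.37) had unadjusted p values of 0.181 or more in edgeR's test.

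**Figure D4:**
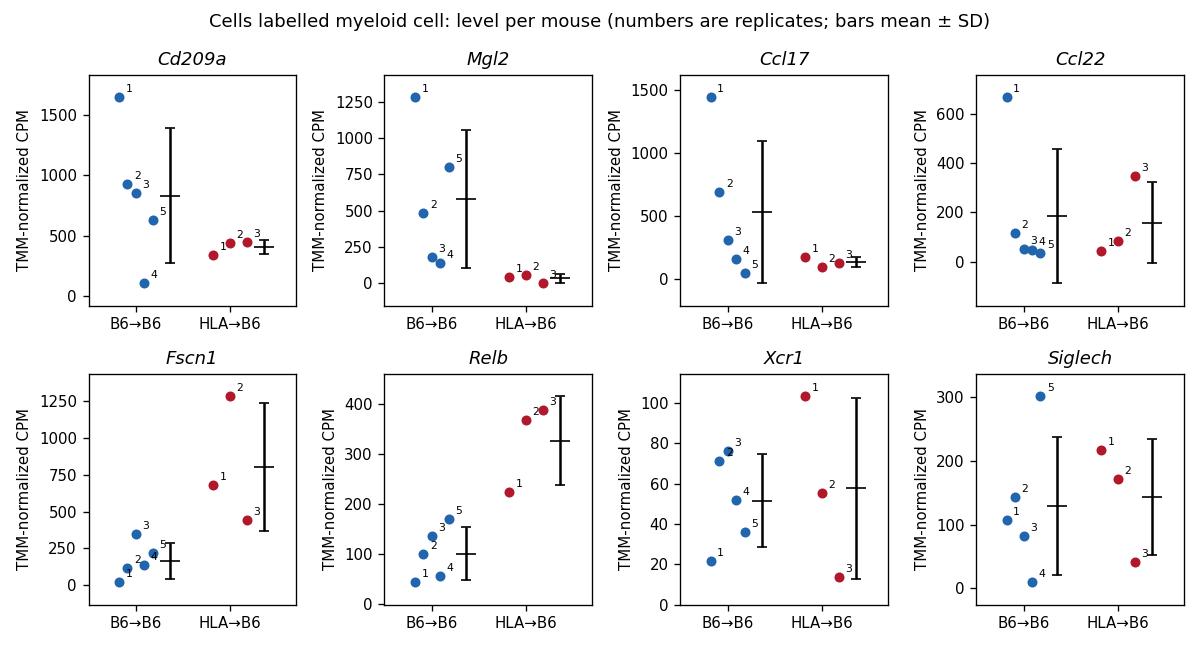
Level in cells labelled myeloid cell of each mouse, in TMM-normalized CPM on a linear axis, for 8 genes; points are mice numbered by replicate (blue B6→B6, red HLA→B6) and black bars are mean ± SD. Mgl2 lies between 0 and 57.2 CPM in HLA→B6 mice, under every B6→B6 value, and Fscn1 lies between 443 and 1283 CPM, above all of them, while the groups overlap for Ccl17, Cd209a, Ccl22, Xcr1 and Siglech.

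Other genes of the same kinds of cell were read from the same fit. Of the cDC2 genes, 7 of 9 were tested, 6 lay below 0 and the median log2 fold change was -0.82. Mgl2 was at 1280, 486, 183, 138 and 797 CPM in B6→B6 and at 44.0, 57.2 and 0 CPM in HLA→B6 mice, without overlap. Its log2 fold change was -3.89 ± 0.87 (SE), with an adjusted p of 0.180 by edgeR, which became 0.0152 with DESeq2, 0.0190 without B6→B6 replicate 4 and 0.0154 without cells that had a T cell marker UMI. Without barcode-sharing cells it was -4.12, with an adjusted p of 0.194 by edgeR. Clec10a (-1.06, adjusted p 0.999 by edgeR) overlapped.

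Of the 12 genes of mature dendritic cells, 11 were tested, 10 lay above 0 and their median log2 fold change was 1.55. None was called by edgeR and 6 had an unadjusted p under 0.05, all with higher values in HLA→B6 mice, as did 148 of the 4395 genes tested (3.37%). Fscn1 was at 21.5, 116, 345, 138 and 217 CPM in B6→B6 and at 678, 1283 and 443 CPM in HLA→B6 mice (log2 fold change 2.23, adjusted p 0.189 by edgeR, 0.0152 by DESeq2). The others were Nudt17 (2.19), Socs2 (1.96), Relb (1.73), Il4i1 (1.61) and Ccr7 (1.25). Relb and Il4i1 had adjusted p values of 0.0441 and 0.0414 by edgeR when cells with a T cell marker UMI were left out, with which 2 of the list and 21 of 3314 genes in all (0.634%) were called higher, of 34 called in either direction (1.03%). With that choice the list's median was 1.08.

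Of the 14 pDC genes, 10 were tested and 9 lay above 0 (median 0.62), and of the 11 cDC1 genes 8 were tested and 5 lay above 0 (median 0.07), with none called by edgeR. Without cells that had a T cell marker UMI the median was 1.15 for the 9 pDC genes then tested and -0.21 for the cDC1 genes, and the latter was -0.17 without B6→B6 replicate 1. Markers of other cells moved beside these. The 3 endothelial markers summed to 9.72 to 61.7 CPM in B6→B6 myeloid cells and to 91.3 to 891 CPM in HLA→B6 ones, without overlap. The 4 cell cycle markers summed to 2398 CPM in B6→B6 replicate 4, against 232.5 to 500 in the other B6→B6 mice and 732 to 871 in HLA→B6 mice, and the 4 T cell markers to 106 to 1697 and 50.4 to 750 CPM. Their part in these differences was not tested, beyond the values without cells that had a T cell marker UMI.

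Outside the myeloid label, Irf8 and Batf3 were higher in HLA→B6 than in B6→B6 grafts in the cells labelled alveolar macrophage. There edgeR called 712 of 5798 genes (12.3%), 369 higher (6.36%) and 343 lower (5.92%) in HLA→B6 mice, and both of the members that passed the filter were among the higher. The filter asks for counts in 3 mice, which the HLA→B6 mice alone can supply. Batf3, lower in every B6→B6 mouse, may have passed in this way, so that both were higher is no separate evidence. The number called depended on single mice: it was 180 when HLA→B6 replicate 2 was dropped, and 273 or 388 when B6→B6 replicate 4 or 1 was. As CPM, 8.73% of the genes were higher and 9.97% lower without overlap. Irf8 was at 109, 104, 70.0, 94.5 and 72.7 CPM in B6→B6 and at 175, 311 and 144 CPM in HLA→B6 mice. Every HLA→B6 mouse lay above every B6→B6 mouse, and the log2 fold change was 1.23 ± 0.24 (SE) with an adjusted p of 0.0122 by edgeR. Irf8 was called under all 16 alternatives tried.

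Batf3 was at 9.12, 6.21, 16.6, 8.83 and 9.09 CPM in B6→B6 and at 31.9, 26.9 and 23.1 CPM in HLA→B6 mice, again without overlap. Its log2 fold change was 1.48 ± 0.32 (SE) with an adjusted p of 0.0166 by edgeR. It was no longer called without B6→B6 replicate 4 (0.0601), HLA→B6 replicate 1 (0.0648) or HLA→B6 replicate 2 (0.0764), and it fell below the filter on low counts once barcode-sharing cells were left out.

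As shares of cells, Irf8 was found in 20.1, 15.5, 17.4, 23.8 and 22.9% of the alveolar macrophages of B6→B6 mice and in 30.7, 64.6 and 26.2% of those of HLA→B6 mice. Batf3 was found in 1.89, 1.06, 4.74, 2.77 and 2.86% against 6.79, 13 and 5.38%. Clec9a, too low to be tested as a level, was found in 0, 0, 0, 0.438 and 0.952% against 2.11, 5.64 and 1.54%, where the 3 values of 0 allow shares of up to 1.89, 1.06 and 1.58%. None of these 3 overlapped (exact permutation p = 0.036 for each), where 7.19% of 8753 genes were higher and 1.19% lower without overlap. As a reference, 2.66% of T cells had an Irf8 UMI, 0.0394% a Batf3 UMI and 0.0592% a Clec9a UMI, at median depths of 1648 UMIs in T cells and 2791.5 in alveolar macrophages.

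Depth differed between these libraries, with median UMIs per alveolar macrophage of 1941, 803, 2090, 2994 and 3837 in B6→B6 and 2609, 7144 and 897.5 in HLA→B6 mice. At 1000 UMIs per cell, with 295 of 1423 and 189 of 1071 shallower cells left out, the shares were 8.29% against 16.2% for Irf8 and 1.02% against 2.73% for Batf3 (exact permutation p = 0.036 for both). Clec9a was at 0.107% against 0.434% (exact permutation p = 0.179).

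The cells under this label also differed between the groups in their markers. The 6 alveolar macrophage markers summed to 9521 to 11918 CPM in B6→B6 and to 543 to 4448 CPM in HLA→B6 mice, without overlap, and the 5 interstitial macrophage markers to 88.0 to 4992 and to 4566 to 8699 CPM, which overlapped. The 4 cell cycle markers were lower in HLA→B6 mice (189 ± 55.2 against 55.8 ± 27.0 CPM, without overlap). Their part in the differences of Irf8 and Batf3 was not tested. Of the other listed dendritic cell genes, 22 were tested here and 4 were called (18.2%), against 12.3% of all genes. They were Cadm1, an adhesion molecule of cDC1s (log2 fold change 4.15, adjusted p 0.00693 by edgeR), Relb (1.58, adjusted p 0.0203 by edgeR) and Ppt1 (0.61, adjusted p 0.0340 by edgeR), all higher, and the transcription factor Klf4, lower (-0.95, adjusted p 0.0296 by edgeR). Cadm1 was called under all 16 alternatives. Ppt1 was not called under 8 of them (adjusted p 0.0547 to 0.162), among them leaving out any 1 of 6 mice, all but B6→B6 replicate 2 and HLA→B6 replicate 3. Klf4 was not called when B6→B6 replicate 1, 3 or 4 or HLA→B6 replicate 1 or 2 was left out (adjusted p 0.0512 to 0.142), nor Relb without HLA→B6 replicate 2 (adjusted p 0.121).

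In monocytes edgeR called 1 of 4352 genes (0.023%), and none of the 3 members tested. Batf3 was at 16.7, 84.4, 54.2, 32.1 and 46.2 CPM in B6→B6 and at 24.1, 33.3 and 25.9 CPM in HLA→B6 mice, with a log2 fold change below 0 (-0.91 ± 0.37, SE, adjusted p 0.915 by edgeR). Irf8 (0.11 ± 0.19, SE) and Cd209a (-0.17 ± 0.72, SE) overlapped. In B cells 7 of 6001 genes were called (0.117%; 6 higher, 0.1%, and 1 lower, 0.0167%), and Irf8, at 335 to 586 CPM in B6→B6 and 393 to 676 CPM in HLA→B6 mice, was not (0.10 ± 0.20, SE, adjusted p 1.00 by edgeR).

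**Figure D5:**
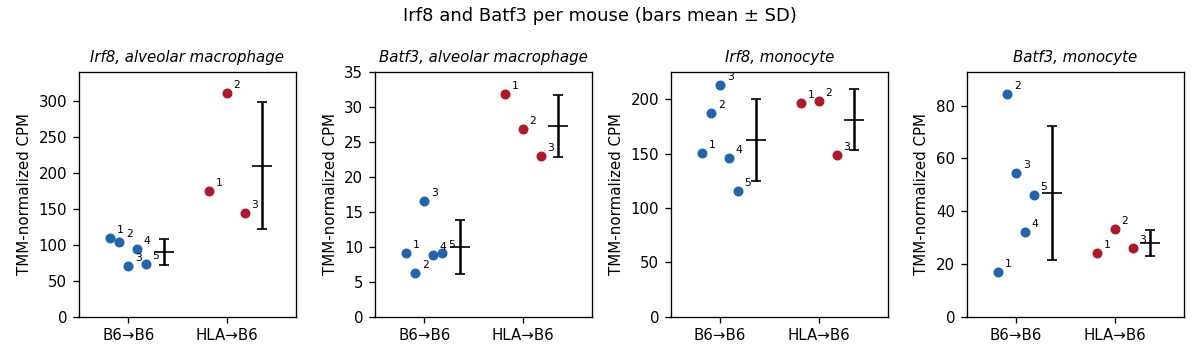
Irf8 and Batf3 in cells labelled alveolar macrophage and monocyte, in TMM-normalized CPM on linear axes; points are mice numbered by replicate (blue B6→B6, red HLA→B6) and black bars are mean ± SD. In alveolar macrophages the HLA→B6 mice lie above all B6→B6 mice (144 to 311 against 70.0 to 109 CPM for Irf8), and in monocytes the groups overlap.

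Ligands and receptors that pair with the members were read in other cells as well. Xcl1, the ligand of XCR1, was found in 21.1% of NK cells and 5.74% of T cells, against 0.0437% of B cells, at median depths of 1484, 1648 and 1597.5 UMIs. In NK cells it was found in 37.1, 13.6, 27.1, 19.1 and 36.8% in B6→B6 and 14.2, 20.1 and 17.9% in HLA→B6 mice (exact permutation p = 0.250). In T cells the shares were 5.17 ± 1.98% and 7.55 ± 1.41% (exact permutation p = 0.071). Flt3l was found in 8.38% of T cells and 8.21% of NK cells. Among myeloid cells it was found in 4.23% of those with Flt3 and 4.24% of the others. Ccr4, the receptor for CCL17 and CCL22, was found in 1.38% of T cells and 0 of 1968 monocytes (a share of up to 0.152%), with 1.91 ± 1.28% of T cells in B6→B6 and 0.815 ± 0.0929% in HLA→B6 mice (exact permutation p = 0.143). Of the 6 partner genes in the list, 2 were tested in myeloid cells, and 0 were called by edgeR or DESeq2 and 0 had an unadjusted p under 0.05 by edgeR.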

How the data were processed

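The 8 libraries, 5 B6→B6 and 3 HLA→B6, were single cells of whole grafts. The deposited counts are whole UMI counts per gene and cell with no normalization. The authors made them with Cell Ranger on mm10, left out barcodes under 200 UMIs and genes in fewer than 3 cells, and used SoupX against free RNA. The sources used here do not state whether SoupX came before these counts. Cell type labels, clusters and the mouse of each cell are those of the deposited table of cells, made by the authors with Seurat and clustifyr. 0 columns of values were left unused. No cell was removed in the main values.

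UMIs were summed per mouse and label (at least 10 cells), normalized by TMM, filtered with filterByExpr at a minimum count of 10 and compared with edgeR's quasi-likelihood F test, adjusted over all genes tested. Shares of cells were compared by an exact two-sided permutation test over 56 splits. Intervals are Wilson 95% intervals and 0 cells are given with the limit that 3 counts allow; both cover counting error only. Depth, a median of 1356 to 1948 UMIs per cell, leaves sparse transcripts undetected in many cells.

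Genes named are the 10 members, lists of cDC1, cDC2, pDC, mature dendritic cell and partner genes, cell type markers, and per member the 3 genes most alike over clusters. The members and lists were chosen with earlier results of these data known. Coordinates are from GENCODE vM21 on GRCm38 and promoters from RefSeq on GRCm38.p6.

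Alternatives were DESeq2, other size factors, no filter, at least 20 cells per mouse, at least 500 UMIs or 2 UMIs for detection, thinning to 1000 UMIs, doublets (Scrublet, expected rate 0.06) or barcode-sharing cells left out, the linked set or the replicate number as a block, the Mann-Whitney test and each mouse left out. Leaving out cells with a T cell marker UMI, and shares within labels under the alternatives, were added after seeing the data. The replicate numbers were checked for pairing: deviations of same-numbered mice correlated between -0.25 and 0.40. edgeR was tested on simulated data. Tests were run in R 4.3.3 with edgeR 4.0.16 and, as an alternative, DESeq2 1.42.0. Sums and shares were made in Python 3.11.15 with pandas 2.3.3, scipy 1.17.1 and numpy 2.4.6, doublets were scored through scanpy 1.11.5, and figures were drawn with matplotlib 3.10.9.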

Additional observations from a re-analysis of the deposited data

Results flagged for a closer look

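Among 29 groups of 5 mice checked for a value far from the others, 3 had one, where chance gives about 1 in 20. B6→B6 replicate 1 had 667 CPM of Ccl22 in myeloid cells, against a group median of 53.1. B6→B6 replicate 3 had 16.6 CPM of Batf3 in alveolar macrophages, against a group median of 9.09. B6→B6 replicate 1 had 242 CPM of Cd209a in monocytes, against a group median of 40.4.

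Differences between labels in the effect of the graft type on Irf8 and Batf3 did not pass the threshold after adjustment in any of 5 comparisons. As log2(CPM + 1) differences per mouse, Irf8 in alveolar macrophages less monocytes was higher by 0.98 in HLA→B6 than in B6→B6 mice, Irf8 in alveolar macrophages less B cells by 1.05 and Batf3 in alveolar macrophages less monocytes by 1.98, all without overlap of the groups (exact permutation p = 0.036, Benjamini-Hochberg adjusted 0.0595 over the family of 5). Against myeloid cells the differences were 1.33 for Irf8 (exact permutation p = 0.179) and 0.83 for Batf3 (exact permutation p = 0.107). Both genes were already called in alveolar macrophages of these mice, so the comparisons are not independent of that result. The share of all genes without overlap is not given for differences between labels. As CPM in alveolar macrophages alone, 8.73% of genes were higher without overlap. The summed alveolar macrophage markers under that label fell without overlap in the same mice, and their part was not tested.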

How the results depend on the processing

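The number of genes called moved with the tool, the filter, the blocks and the mouse left out. With DESeq2 it was 119 over all cells (0 by edgeR), 25 in myeloid cells (0), 15 in monocytes (1) and 2 in B cells (7). Without the filter it was 153 in myeloid cells, 98 in monocytes, 1083 in alveolar macrophages (712) and 73 in B cells, and with the linked set as a block 92, 15, 5 and 1253 over all cells and in myeloid cells, monocytes and alveolar macrophages. In monocytes it was 2 without barcode-sharing cells and 3 without doublets, and in myeloid cells 34 without cells that had a T cell marker UMI. With each mouse left out in turn it ran from 0 to 0 over all cells, 0 to 27 in myeloid cells (27 when B6→B6 replicate 4 was left out, 5 for HLA→B6 replicate 2), 1 to 6 in monocytes, 180 to 829 in alveolar macrophages (180 when HLA→B6 replicate 2 was left out, 273 for B6→B6 replicate 4 and 388 for replicate 1) and 0 to 16 in B cells. The causes were not tested. Deviations of same-numbered mice correlated from 0.081 to 0.40 for replicate 2, from -0.13 to 0.31 for replicate 1 and from -0.25 to -0.086 for replicate 3. The mice of replicate 2 also shared 160 barcodes, 26.6 times the number expected at random. What same-numbered mice have in common was not tested. With the replicate block the counts were 7 over all cells, 31 in myeloid cells, 10 in monocytes, 283 in alveolar macrophages and 27 in B cells; Ccl17 in myeloid cells was called (log2 fold change -2.71, adjusted p 0.00898 by edgeR), Batf3 in alveolar macrophages was not (1.38, adjusted p 0.135 by edgeR), nor were Ppt1 (0.162) and Relb (0.0512) there, and signs turned for Irf8 in monocytes (-0.047), B cells (-0.078) and myeloid cells (-0.17) and for Xcr1 in myeloid cells (-0.052). Without the filter Ccl17 in myeloid cells was called as well (-1.98, adjusted p 0.000776 by edgeR). None of the turned values was called. With the linked set as a block, Flt3 (0.075), Clec9a (0.12) and Ccl22 (0.34) in myeloid cells turned, Clec9a (0.049) without barcode-sharing cells, and Xcr1 (-0.29) and Irf8 (-0.050) without cells that had a T cell marker UMI. With a mouse left out, log2 fold changes in myeloid cells ran from -0.46 to 0.051 for Flt3, -0.64 to 0.35 for Zbtb46, -0.39 to 0.43 for Xcr1, -0.74 to 0.12 for Clec9a, -0.070 to 0.90 for Siglech, -0.23 to 0.58 for Irf8 and -1.59 to 1.11 for Ccl22, from -1.11 to 0.75 for Cd209a in monocytes and from -0.084 to 0.27 for Irf8 in B cells. Differences in the share of all cells, in percentage points, ran from -0.384 to 0.268 for Flt3, -0.340 to 0.218 for Zbtb46, -0.0456 to 0.153 for Xcr1, -0.117 to 0.487 for Clec9a, -0.0309 to 0.193 for Siglech, -1.19 to 3.96 for Irf8, -0.0358 to 0.996 for Batf3 and -0.0193 to 0.231 for Ccl22. That of Irf8 was -0.257 at 1000 UMIs per cell, and that of Xcr1 was -0.130 as a share of myeloid cells, monocytes and alveolar macrophages. Leaving out a mouse raises the smallest exact p to 0.057 or 0.095, so shares could not pass the threshold there. The number of cells limits the shares: in the 3 mice with the fewest myeloid cells, 21 to 42, a single cell moves a share by several percentage points.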
